A study of Mus musculus with 2 samples.

Results

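The mouse chromosome 16 interval that matches human 22q11 carries the miRNA genes Mir185, Mir1306, Mir130b and Mir301b, and these 4 of the 2202 miRNA genes counted in mouse heart are described here. They were chosen by name and position with their sense-strand counts in both libraries already known, so their levels and the difference between libraries are descriptions without a test. Short RNAs under 30 bases in total RNA were sequenced from heart tissue of male B6CASTF1/J mice, a first-generation cross of B6 with CAST, obtained from The Jackson Laboratory. Their age is labelled as 36 days, although 1 label writes the number with months. The 2 libraries form 1 group without treatment and are labelled biological replicates 1 and 2 from differently numbered males, but both carry 1 donor record, so the spread between them may be partly technical.

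A miRNA is a short RNA cut from a hairpin precursor, first in the nucleus by the microprocessor, made of Drosha and its RNA-binding partner Dgcr8, and then in the cytoplasm by Dicer. The mature strand guides Argonaute to mRNAs, mainly through its seed, bases 2 to 8, and lowers their translation and stability. In people, loss of 1 copy of 22q11 is a frequent cause of outflow tract defects of the heart. The interval holds the microprocessor gene Dgcr8 itself, which also hosts Mir1306.

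Strands that share a seed can act on shared targets, so the available mature sequences are printed first, 5′ to 3′, with the seed in capitals. They come from RefSeq (GRCm38.p6, minus strand of chromosome 16). RefSeq sequences were used for 6 mature strands of the members. The strands miR-185-5p and miR-301b-3p are named only.
mmu-miR-185-3p: aGGGGCUGgcuuuccucuggu
mmu-miR-1306-5p: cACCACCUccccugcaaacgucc
mmu-miR-1306-3p: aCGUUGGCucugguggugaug
mmu-miR-130b-5p: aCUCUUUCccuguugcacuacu
mmu-miR-130b-3p: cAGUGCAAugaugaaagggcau
mmu-miR-301b-5p: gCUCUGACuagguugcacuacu
No seed was shared among these 6 strands. The seeds of miR-185-5p and miR-301b-3p were not compared, and Mir301b is counted below in the seed family of miR-130b-3p. These 6 strands alone therefore do not show whether members share targets. The seed AGUGCAA of miR-130b-3p marks the miR-130/301 family, which is known from vascular cells, and 3 other strands with this seed are shown beside it because the levels of their genes are compared below.
mmu-miR-130a-3p: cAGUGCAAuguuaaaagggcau
mmu-miR-301a-3p: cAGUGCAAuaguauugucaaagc
mmu-miR-721: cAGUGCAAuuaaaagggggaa
Compared position by position from the 5′ end, miR-130b-3p and miR-130a-3p were identical at 20 of 22 bases, and at 12 of the 14 after the seed. With miR-301a-3p, 11 of 22 positions were identical, of which 3 lay after the seed.

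The hairpins lie in 3 host genes, all on the minus strand (mm10, GENCODE M21). Mir185 (ENSMUSG00000065464.2, chr16:18327401-18327465) lies in intron 1 of the principal transcript of Tango2, a gene whose loss in people causes metabolic crises with arrhythmia. It was intronic in all 10 transcripts that span it. Mir1306 (ENSMUSG00000080452.3, chr16:18284239-18284317) lies in exon 2 of the principal Dgcr8 transcript and overlaps its coding sequence, and it was exonic in all 4 transcripts that span it. Mir130b (ENSMUSG00000065572.1, chr16:17124061-17124142) and Mir301b (ENSMUSG00000076288.1, chr16:17124400-17124496) lie 257 bases apart in intron 1 of 2610318N02Rik, in all 3 spanning transcripts. From the first to the last member the interval spans 1203405 bases, of which 1159742 separate Mir301b from Mir1306, while Mir1306 and Mir185 are 43083 bases apart.

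The hairpins of Mir1306 and Mir130b are shown with their mature strands in capitals, since the former is also coding sequence and the latter is the counted gene of a clustered pair.
Mir1306 hairpin: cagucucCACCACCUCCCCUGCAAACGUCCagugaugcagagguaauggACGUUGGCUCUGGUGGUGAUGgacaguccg
Mir130b hairpin: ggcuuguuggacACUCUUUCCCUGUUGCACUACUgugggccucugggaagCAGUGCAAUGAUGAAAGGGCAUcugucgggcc
The tables sum all reads of a hairpin, so the strands are not separated, and a fragment of the Dgcr8 mRNA over the Mir1306 hairpin cannot be told apart from its miRNA reads. The Mir185 hairpin had the lowest predicted folding energy per base of the 4, at -0.572 kcal/mol, and 94.0% of 1005 RefSeq mouse hairpins were less stable per base. Mir301b stood at -0.403, Mir1306 at -0.377 and Mir130b at -0.367, against a median of -0.406 over all hairpins. GC content ran from 53.6% in Mir301b to 58.5% in Mir185, above the median of 51.7%.

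Library 1 held 5479149 reads and library 2 held 4893073, and the sense-strand gene counts summed to 1999362 and 1862526. A further 41.5% and 42.9% mapped to several places and were given to no gene. Levels are counts per 1000000 of the assigned sense-strand reads (CPM), with exact Poisson 95% intervals for 1 library, which cover counting error only, and mean ± SD over n = 2 libraries. The heart label was checked with 7 cardiac muscle miRNA genes, all of which had counts, with a summed level of 8556 CPM in library 1 and 6697 CPM in library 2. Mir208a and Mir499 carried most of this sum and differed in opposite directions, Mir208a with 7004 CPM in library 1 and 3393 in library 2, and Mir499 with 1336 and 3141. Mir1a-1, Mir133a-1 and Mir133a-2 rested on 2 to 6 reads per library. Among the lists for other cells, Mir199a-1 and Mir142b were at 0 counts. All these counts leave out reads mapping to several places, whose part in such low values was not tested.

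Mir185 was the member with the highest mean and with by far the widest spread. It gave 2840 reads in library 1, or 1420 CPM (1369 to 1474), and 279 reads in library 2, or 150 CPM (133 to 168). The intervals are far apart: library 1 is high and library 2 low, and the mean of 785 ± 898 CPM (SD, n = 2) describes neither library. Among the 2202 genes its rank by counts was 54 in library 1 and 120 in library 2. Mature miR-185 is known from the brain of mouse models of the 22q11 deletion, where its loss is linked to raised Atp2a2, the gene of a calcium pump of the endoplasmic reticulum.

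Mir1306 was nearly level between the libraries. It gave 416 reads in library 1, or 208 CPM (189 to 229), and 332 in library 2, or 178 CPM (160 to 198), a mean of 193 ± 21.1 CPM. These intervals overlap, and the rank was 111 in library 1 and 115 in library 2. No host mRNA was measured here, so the level of Dgcr8 is unknown.

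Mir130b lay lower and leaned towards library 1. It gave 377 reads in library 1, or 189 CPM (170 to 209), and 159 in library 2, or 85.4 CPM (72.6 to 99.7), a mean of 137 ± 73.0 CPM. Its intervals do not overlap, and the rank moved from 117 in library 1 to 148 in library 2.

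Mir301b had 0 counts in both libraries, as had 1550 of all 2202 genes. A count of 0 allows up to 3 counts, or 1.5 CPM in library 1 and 1.61 in library 2. The partner of Mir301b, Mir130b, lies 257 bases away in the same intron and on the same strand. Against the floor of each library, Mir130b was at least 126-fold higher in library 1 and at least 53-fold higher in library 2. These bounds leave out the counting error of Mir130b. No member shares a stretch of 22 bases, roughly a whole mature strand, with another annotated hairpin. The longest stretch that Mir301b shares is 16 bases, with Mir301, the gene of miR-301a. Reads that map to several places because they allow mismatches or match unannotated copies were not traced, so their part in the 0 was not tested.

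**Figure D1:**
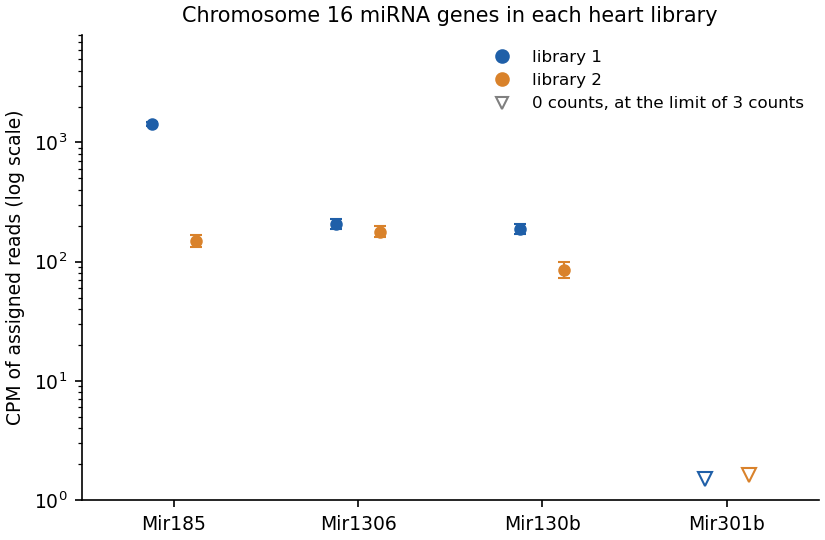
Level of each member in each heart library, in CPM of assigned reads on a log axis, with bars for exact Poisson 95% intervals and open triangles for 0 counts drawn at the limit of 3 counts. Mir185 lies at 1420 CPM in library 1 and 150 in library 2, Mir1306 at 208 and 178, and Mir301b has no counts.

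An uncounted neighbour was seen at other places too. Among 49 pairs of adjacent miRNA genes on 1 strand within 1000 bases whose higher gene had a mean of 100 CPM or more, the lower gene had 0 counts in 9. In 32 of these pairs the lower gene shares no 22-base stretch with another hairpin, and 4 of those were at 0. Both chromosome 16 pairs of the interval were among the 4: Mir301b beside Mir130b, and Gm24572, a miRNA gene 232 bases from Mir1306 that overlaps the untranslated part of Dgcr8 exon 2. Over all 2202 genes, 1550 had 0 counts in both libraries, so a 0 was common among annotated miRNA genes. The distance of 1000 bases was chosen after the values were seen.

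Library 1 gave the members together 0.182% of its assigned reads, with an exact 95% interval from 0.176 to 0.188. Library 2 gave them 0.0413%, with an interval from 0.0385 to 0.0444, for a mean of 0.112% ± 0.0993 (SD, n = 2). Their make-up differed between the libraries. Mir185 held 78.2% of the members' reads in library 1 and 36.2% in library 2, while Mir1306 held 11.5% and 43.1%. Without Mir185 the summed level was 397 CPM in library 1 and 264 CPM in library 2.

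Ratios between members inside 1 library do not depend on how libraries are scaled to each other. Of the 6 pairs, 3 have counts on both sides. Mir185 exceeded Mir1306 by 6.83-fold in library 1 (exact 95% interval 6.16 to 7.58), but in library 2 the ratio was 0.840 (0.714 to 0.988). The order of these neighbours in Tango2 and Dgcr8 was therefore opposite in the libraries. Mir185 over Mir130b was 7.53 in library 1 (6.76 to 8.41) and 1.75 in library 2 (1.44 to 2.15), the same order with a smaller gap. Mir1306 over Mir130b was 1.10 in library 1 (0.958 to 1.27), where the interval includes 1, but 2.09 in library 2 (1.72 to 2.54). By mean level the order was Mir185, Mir1306, Mir130b and Mir301b, but neighbours in this order did not differ beyond their spread over the libraries where both had counts. The mean log2 ratio was 1.26 ± 2.14 for Mir185 over Mir1306 and 0.60 ± 0.65 for Mir1306 over Mir130b (SD, n = 2). For Mir185 over Mir130b, which are not neighbours in the order, it was 1.86 ± 1.49. The other 3 pairs set a member against Mir301b and give lower bounds from the floor of 3 counts. Mir185 was at least 947-fold higher in library 1 and at least 93-fold in library 2, and Mir1306 at least 139-fold and at least 111-fold higher.

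**Figure D2:**
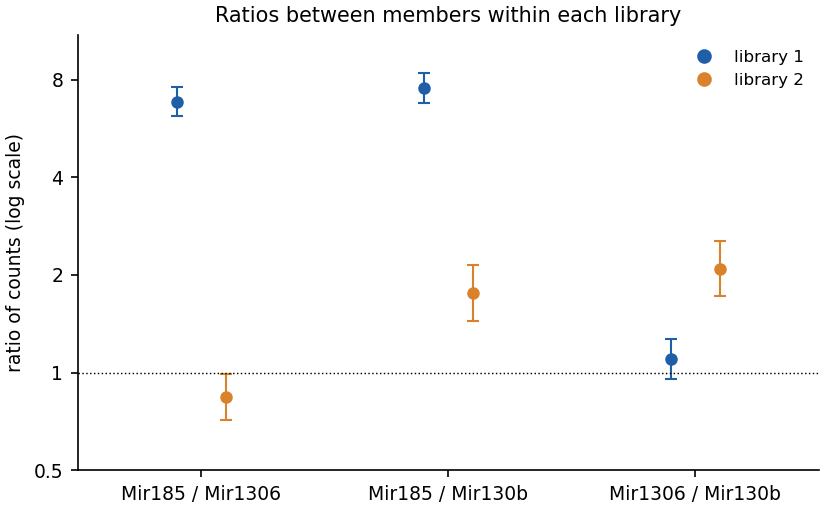
Ratio of counts between members within each library, on a log axis, with exact binomial 95% intervals and a dotted line at 1. The ratio of Mir185 to Mir1306 lies at 6.83 in library 1 and at 0.840 in library 2, on opposite sides of 1.

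The libraries were then set against each other for all genes with 10 or more counts summed, which 344 genes had, 3 members among them. This compares 2 libraries of 1 group and no conditions. As log2 of library 2 over library 1, Mir185 stood at -3.24 (exact conditional binomial 95% interval -3.43 to -3.07), a CPM 9.48-fold higher in library 1. Mir130b stood at -1.14 (-1.42 to -0.87) and Mir1306 at -0.22 (-0.44 to -0.01). The median of all 344 genes was -0.19, and relative to it the members lay at -3.06, -0.95 and -0.04.

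Of the 3 tested members, 2 were 2-fold or more higher in library 1, where 13.7% of the 344 genes were, and 7.56% were that much higher in library 2. Among the 141 genes with a mean level of at least 100 CPM, which hold all 3, 4.96% were 2-fold or more higher in library 1, against 7.09% in library 2. Since the members were chosen with this contrast known, nothing is read from their count. With edgeR's TMM scaling, which uses a trimmed mean of log ratios, the shares over all tested genes were 8.72% for library 1 and 10.8% for library 2. Over the 141 genes they were 1.42% and 10.6%. Mir130b, at -0.92, no longer reached 2-fold with this scaling. Mir185 kept -3.02 and Mir1306 came to 0.00.

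Mir185 had the lowest log2 ratio of the 141 genes with a mean of at least 100 CPM, and Mir130b the fourth lowest. These places depend on the cut at 100 CPM: among all 344 tested genes, Mir185 ranked 4 and Mir130b 36 from the lowest. Mir130b passed the cut only through library 1, with 189 CPM there and 85.4 in library 2. Mir222 (218 and 77.3 CPM) and Mir487b (139 and 62.3 CPM) passed it in the same way, so nothing is read from these places. Within the 141 genes, the next after Mir185 was Mir222 at -1.49, from 436 reads in library 1 and 144 in library 2. The genes with log2 ratios most like that of Mir130b, over 2 libraries, were Mir487b (-1.16), Mir127 (-1.08) and Mir214 (-1.05). For Mir1306 they were Mir125b-1 (-0.23), Mir335 (-0.21) and Mir324 (-0.20). For Mir185 the nearest were Mir222, Mir487b and Mir130b itself, at distances of 1.75, 2.09 and 2.10 on the log2 scale.

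**Figure D3:**
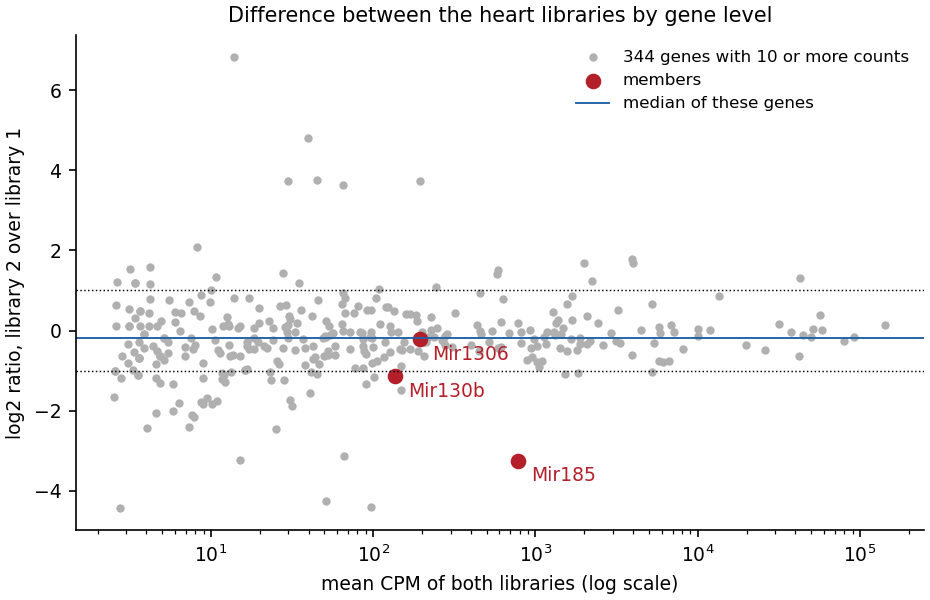
Log2 ratio of library 2 over library 1 against the mean CPM (log axis) for the 344 genes with 10 or more counts summed, with 2-fold marked by dotted lines and the median of -0.19 by a line. Mir185, at -3.24, is the lowest of the 141 genes at 100 CPM or more, and Mir1306 lies on the median.

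Some cell type marker lists also differed between the libraries, and their part in its difference was not tested. The skeletal muscle genes Mir206 and Mir133b summed to 98.5 CPM in library 1 against 5.37 CPM in library 2, and the liver miRNA gene Mir122 gave 119 and 13.4 CPM. The fibroblast list, with 3 of its 4 genes counted, summed to 2484 CPM in library 1 and 1201 in library 2, nearly all from Mir214 (2471 and 1190 CPM), while Mir199b stood at 4.00 and 6.98 CPM. The epithelial list, at 460 and 947 CPM, was higher in library 2, and so was the endothelial list, at 48925 and 63819 CPM, nearly all from Mir126a. The erythroid list (2452 and 1970 CPM), the leukocyte list (5357 and 4950) and the smooth muscle list (39517 and 38697) differed less. Against the direction of their sums, Mir150 of the leukocyte list (1088 and 1489 CPM) and Mir145a of the smooth muscle list (1244 and 1422 CPM) were higher in library 2. All these sums, that of the fibroblast list included, lack the reads mapping to several places. In bulk tissue, fewer cells of a type and less RNA per cell cannot be told apart.

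Other chromosome 16 miRNA genes lay near the median of all tested genes. Of 76 annotated miRNA genes of chromosome 16, 20 had a count and 12 were tested. Of all 2202 genes, 344 were tested and 1550 had 0 counts in both libraries. The 9 tested genes that are not members lay between -0.43 (Mir484) and 0.42 (Mir125b-2), with a median of -0.25, and 0 of them reached 2-fold with either scaling. Of all 344 tested genes, 13.7% were 2-fold or more higher in library 1 and 7.56% in library 2. With TMM scaling the shares were 8.72% and 10.8%. With 9 genes, nothing is read from the 0. The interval from the first to the last member holds 6 miRNA genes, and those that are not members, Mir6366 and Gm24572, had 0 counts. The nearest tested genes on either side were Mir484 at -0.43 (935 ± 194 CPM) and Mir28a at -0.25 (2169 ± 266 CPM). Farther along, Mir193b stood at 118 ± 16.1 CPM and Mir155, known from leukocytes, at 3341 ± 492 CPM. Mir99a (31684 ± 2450 CPM), Mirlet7c-1 (436 ± 29.2) and Mir125b-2 (160 ± 32.5) form a cluster that leaned slightly to library 2, at log2 ratios of 0.16, 0.14 and 0.42.

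**Figure D4:**
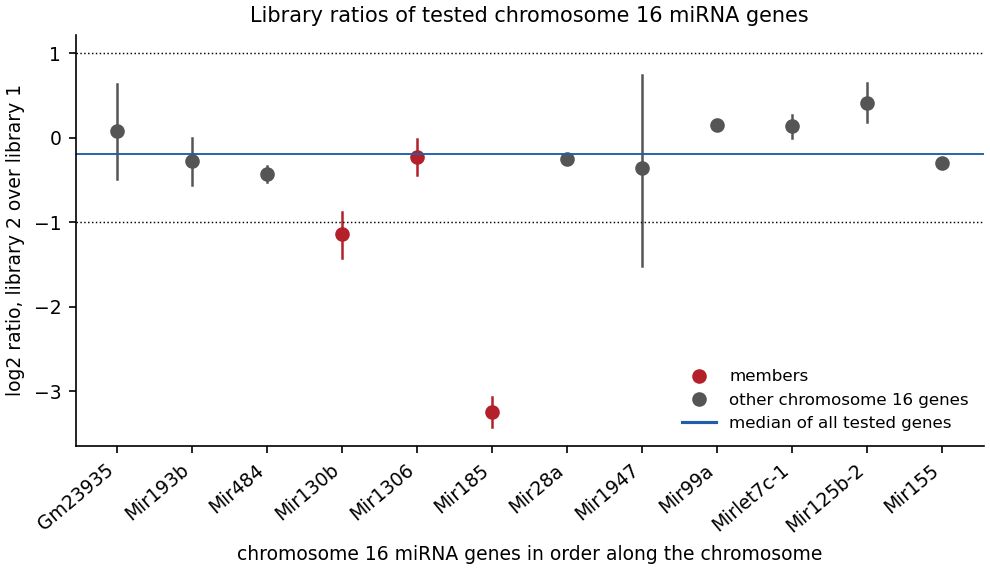
Log2 ratio of library 2 over library 1 for the 12 tested miRNA genes of chromosome 16 in order along the chromosome, with exact binomial 95% intervals, 2-fold as dotted lines and the median of all 344 tested genes as a line. Mir185 at -3.24 and Mir130b at -1.14 stand below the other 10, which lie between -0.43 and 0.42.

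Mir130b gave a small part of its seed family. The family of seed AGUGCAA, with Mir301b counted in, has 8 genes in the tables, and 3 of them had counts: Mir130a on chromosome 2, Mir130b, and Mir301 on chromosome 11. Mir130a, which in human endothelial cells is known to repress the antiangiogenic homeobox genes GAX and HOXA5, had 5846 reads in library 1 (2924 CPM) and 4246 in library 2 (2280 CPM), a mean of 2602 ± 456 CPM. Mir301 had 43 and 20 reads, 21.5 and 10.7 CPM. The family summed to 3134 CPM in library 1 and 2376 in library 2, of which Mir130b gave 6.02% (exact 95% interval 5.44 to 6.63) and 3.59% (3.06 to 4.18). Mir130a gave 93.3% and 96.0%.

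All 3 counted genes of the family were lower in library 2, but so were most of the 344 tested genes. Nothing is read from this shared direction. Mir130a stood at a log2 ratio of -0.36 (-0.42 to -0.30), Mir301 at -0.98 (-1.85 to -0.21) and Mir130b at -1.14. Against the median of -0.19 over all tested genes, Mir130a was at -0.17. With TMM scaling these became -0.14, -0.76 and -0.92. The genes Mir130c, Mir721, Mir6341 and Mir6389 had 0 counts, like Mir301b. The other seeds of the members were shared with few genes: Mir7048 with miR-185-3p, at 0 counts, and Mir7014 with miR-130b-5p, at 0 and 2 reads, while miR-301b-5p shares its seed with miR-301a-5p. The strands of Mir1306 shared a seed with no other mouse miRNA of the RefSeq table.

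**Figure D5:**
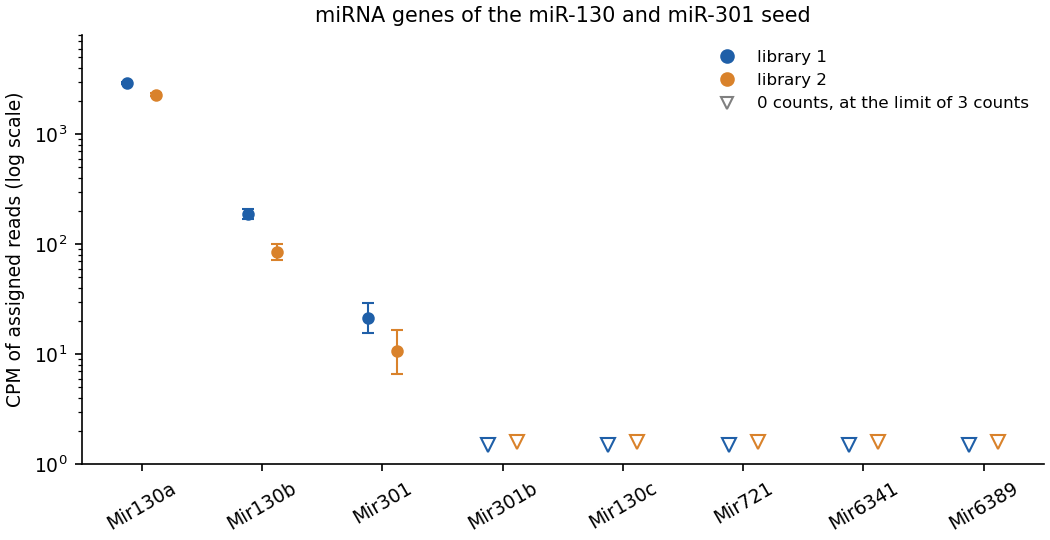
Level of the 8 genes of the AGUGCAA seed family in each library, in CPM of assigned reads on a log axis, with exact Poisson 95% intervals and open triangles for 0 counts drawn at the limit of 3 counts. Mir130a, at 2924 and 2280 CPM, is the highest, Mir130b lies at 189 and 85.4 CPM, and 5 genes have no counts.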

How the data were processed

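The authors deposited 1 table per library of raw read counts per miRNA gene, whole numbers without normalization, for both strands together, sense and antisense. Assembly mm10 and annotation M21 are named in the text deposited beside the tables, while aligner, counter and settings are not stated in the sources used here. The strand of each column was read from the values. The 4 status rows, 63.5% and 61.9% of reads, stayed out of totals. All 2202 identifiers matched GENCODE M21. CPM used the sense column. Log2 ratios had 0.5 added to each count and were tested on simulated data. Intervals are exact at 95% and cover counting error only, and the floor is 3 counts. Folding energies came from ViennaRNA 2.7.2, TMM from edgeR 4.0.16 and size factors from DESeq2 1.42.0, with Python 3.11.15 and scipy 1.17.1. With 1 group of 2 libraries no test between conditions was made.

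The members and lists were chosen with earlier results of these data known. Named genes are the members, genes sharing a seed, genes of the interval, chromosome 16 genes averaging at least 100 CPM, the nearest genes by mean level (2 above and 2 below) and by ratio (3), and cell type markers. The alternatives were both strands together, all reads as the total, TMM, DESeq2 size factors, 0.1 or 1 added, the most abundant gene left out, other count filters and folds, and each replicate left out.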

Additional observations from a re-analysis of the deposited data

Results flagged for a closer look

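Reads mapping to several places were a large signal outside the gene counts, at 2273922 in library 1 and 2098983 in library 2, or 42.2% ± 0.987 of all reads (SD, n = 2). They were assigned to no gene and were not traced to any member. The antisense column held 0 reads for each of the 4 members in both libraries. Outlying samples and differences between groups were not examined with 1 group of 2 libraries.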

How the results depend on the processing

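The low values of Mir185 and Mir130b in library 2 kept their direction under the 7 alternatives run on the ratio. These change only the total, the scaling or the count added, so a kept direction is no independent support. The 2-fold call of Mir130b was lost with TMM (-0.92) and DESeq2 (-0.95). TMM gave Mir185 a log2 ratio of -3.02 and DESeq2 -3.06, and TMM turned Mir1306 to 0.00, its value being 0.00113. The log2 ratio of Mir185 to Mir1306, 1.26 as a mean, ran from -0.25 to 2.77 when each replicate was left out, so 1 library decides their order. Without replicate 1 Mir185 was at 150 CPM, and without replicate 2 at 1420. The level of Mir1306 became 250 CPM with both strands together, 71.9 per 1000000 of all reads and 225 without Mir378a, and that of Mir130b 50.7 of all reads, since the total changed. The count of genes 2-fold higher in library 1 went from 47 to 30 with TMM. With a minimum of 1 count, 181 genes were higher in library 1 and 102 in library 2; with 50 counts 22 and 17; at 1.5-fold 94 and 50; at 3-fold 22 and 10. No paired analysis was possible because the design has 1 group. With the floor of 3 counts, a level of Mir301b of up to 1.61 CPM in library 2 would go undetected. This covers depth only and not reads mapping to several places.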

Other observations

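The genes next to each member in mean level are listed as a description only, since the spread of Mir185 was known when the members were chosen. They are matched on the mean, which for Mir185 describes neither library. Just above Mir185 (785 ± 898 CPM) stood Mir425 at 816 ± 11.5 and Mir467d at 814 ± 126 CPM, and just below it Mirlet7a-1 at 777 ± 67.1 and Mir10b at 682 ± 20.8 CPM. Around Mir130b (137 ± 73.0 CPM) were Mir501 at 147 ± 32.6, Mir144 at 141 ± 2.44, Mir1843a at 134 ± 32.0 and Mir101b at 129 ± 3.06 CPM. Around Mir1306 (193 ± 21.1 CPM) were Mir154 at 198 ± 4.34, Mir187 at 188 ± 47.0, Mir338 at 186 ± 24.0, and Mir26a-2, which at 195 ± 237 CPM differed strongly the other way, with 54 reads in library 1 and 675 in library 2. These are values of 2 libraries, and no cause of the differences was tested.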
